A study of Mus musculus with 4 samples.

Results

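Endothelial cells rich in Vwf, labelled as those of the liver's larger inflow vessels, were examined in mice given repeated doses of carbon tetrachloride (CCl4). CCl4 is a toxicant of hepatocytes that is used to bring about liver fibrosis. The cells were selected on counts of unique molecules (UMIs) in single cells, above all those of Vwf. A cell needed at least 200 genes and at most 25% mitochondrial UMIs, 4 or more UMIs of Vwf, and 3 or more of the endothelial genes Pecam1, Cdh5, Egfl7 and Ptprb together. Cells with 2 or more UMIs of the central vein genes Wnt9b and Rspo3, more than 2 of the Kupffer cell gene Clec4f, more than 3 of the fibroblast gene Dcn or more than 2 of the leukocyte gene Laptm5 were left out. Of 25861 cells that passed the filters, 368 met this rule, 105 and 53 in the 2 corn oil libraries and 98 and 112 in the 2 CCl4 libraries. They are called vessel cells below, and the 13757 cells that met the same rule but had 0 or 1 Vwf UMI are called other endothelial cells, which are mainly sinusoidal.

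All 4 libraries came from wild-type male mice aged 8 to 10 weeks at dosing, with 1 library per mouse. The CCl4 mice received a mixture of 1 part CCl4 and 9 parts corn oil by intraperitoneal injection, 10 µl for each gram of mouse, 2 times a week for 5 weeks. The control mice received corn oil in the same way, and all were killed 48 hours after the last injection. The cells were freed by pronase and collagenase perfusion and most hepatocytes were spun out at 50 × g, so a vessel cell enters the data only if digestion freed it. No genetic change was present in either group.

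Blood reaches the liver through the portal vein and the hepatic artery, whose branches run together in the portal tracts and open into the sinusoids. Their endothelium is continuous, lies on elastic and basement membrane matrix, stores von Willebrand factor (Vwf), and makes endothelin-1 (Edn1), a peptide that contracts smooth muscle and stellate cells. Sinusoidal endothelium is fenestrated, scavenges from the blood through receptors such as Stab2 and normally holds little Vwf. Arterial identity depends on Notch and SoxF transcription factors, and the gap junction protein connexin 40 (Gja5) is used as a marker of arterial endothelium.

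The summed vessel cells held 707256 and 270454 UMIs in corn oil and 632886 and 698311 in CCl4, so corn oil 2 was the shallowest library. The median vessel cell held 4938 and 4004 UMIs in the corn oil libraries and 5404 and 5120.5 in the CCl4 libraries, against 5159, 4212, 6561 and 5964 for other endothelial cells. Between 42 and 70 cell barcodes were shared by each pair of libraries, and no vessel cell's barcode was shared. The CCl4 1 table came from a separate run of the authors' pipeline. The libraries were otherwise placed in 1 batch by the labels. Levels below are in CPM, the UMIs of a gene scaled to the same class total in each library. Changes are given on the log2 scale as CCl4 relative to corn oil. The standard error (SE) beside a change is its absolute value divided by the square root of the F statistic of the test below. It was thus derived from the test, and for genes with few UMIs in 1 group it can lie below counting error. A gene counts as called, and as having risen or fallen, where edgeR's quasi-likelihood test over the 4 libraries gave an adjusted p below 0.05.

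The label was checked against 4 marker genes that the rule did not use. Gja5, connexin 40, stood at 506 and 539 CPM in corn oil and 612 and 979.5 CPM in CCl4 in vessel cells, against 1.81 to 6.44 CPM in other endothelial cells. Edn1 stood at 1131 and 990.4 CPM in corn oil and 685 and 923 CPM in CCl4, against 7.35 to 11.7 CPM. Both genes were far higher in vessel cells of every library, and the ranges of the classes did not come near each other. Mecom, a transcription factor gene of arterial endothelium, stood at 358 to 665 CPM against 29.4 to 146 CPM, and in both classes it was higher in corn oil 2 and CCl4 2 than in the other libraries. Sox18, a SoxF factor of vascular endothelium in general, differed least, at 597 to 846 CPM against 309 to 398 CPM. Of the 368 vessel cells, 171 (46.5%) had at least 1 UMI of all 4 genes, 131 of 3, 55 of 2 and 11 of 1. Since the classes were cut by Vwf in these same cells, these differences are a description and carry no test.

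**Figure D1:**
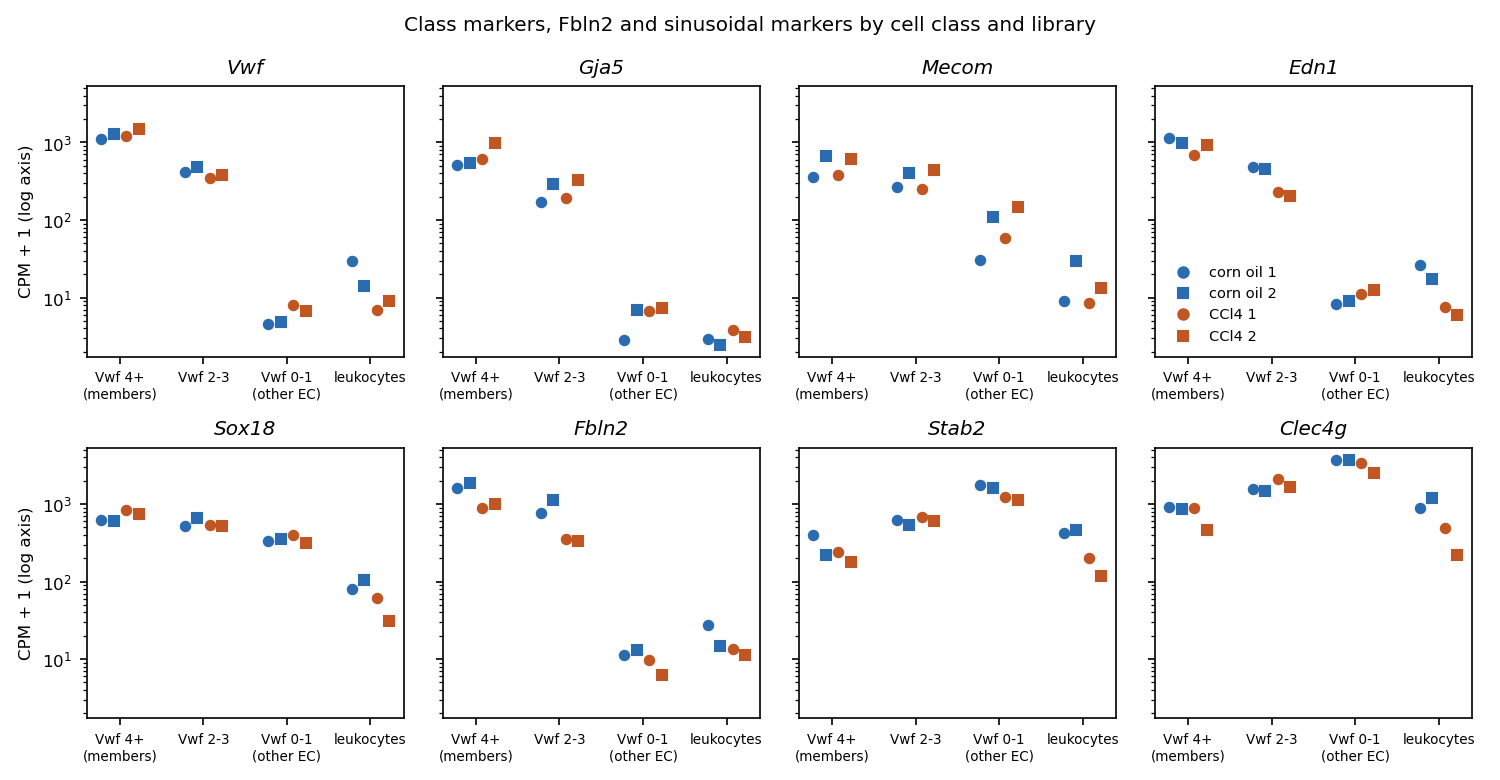
Levels (CPM + 1, log axis) of the 5 class markers, Fbln2 and the sinusoidal markers Stab2 and Clec4g in vessel cells, cells with 2 or 3 Vwf UMIs, other endothelial cells and leukocytes, 1 point per library. Gja5 and Edn1 fall from at least 506 CPM in vessel cells to at most 11.7 CPM in other endothelial cells, with the cells of 2 or 3 Vwf UMIs between.

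Cells on either side of the Vwf threshold differed by degrees. Over all libraries the 76 cells with exactly 4 Vwf UMIs had 496 CPM of Gja5, 763 CPM of Edn1 and 1039 CPM of the sinusoidal gene Clec4g. The 85 cells with 3 Vwf UMIs had 329.6 CPM of Gja5, 481 CPM of Edn1 and 1321 CPM of Clec4g, and the 183 cells with 7 or more had 802 CPM, 1074 CPM and 501 CPM.

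Marker lists of other cells in the liver were summed in vessel cells. The 8 lymphatic genes summed to 787, 642.5, 1048 and 548.7 CPM, which came mainly from Lyve1 (139.7 to 555 CPM) and Flt4 (275 to 393 CPM), which stood at 1070 to 2582 CPM and 919.8 to 1002 CPM in other endothelial cells. The more restricted lymphatic genes Pdpn, Ccl21a and Mmrn1 had no UMI in any vessel cell, and the lymphatic factor Prox1 stood at 0 and 19.1 CPM in corn oil and 0 and 5.82 CPM in CCl4. Of 9 smooth muscle genes 4 were at 0, and the 9 together summed to 33.5 and 15.3 CPM in the corn oil libraries and 32.5 and 33.5 CPM in the CCl4 libraries. Bile duct genes summed to 0, 149, 9.74 and 10.2 CPM in the same order, so corn oil 2 stands apart there. Hepatocyte genes summed to 275, 569.8, 243 and 537 CPM, which overlapped between the groups. Kupffer genes summed to 40.8, 61.2, 55.2 and 27.7 CPM, and stellate and fibroblast genes to 151, 214, 153 and 135 CPM. Genes of monocytes and other leukocytes summed to 274, 95.6, 198 and 209.6 CPM, of which Fcer1g gave 49.7 to 128 CPM, against 242 to 397 CPM in other endothelial cells. Of 7 mesothelial genes 5 were at 0, and the sum of 71.3, 76.5, 92.5 and 80.0 CPM was nearly all Gpm6a, which stood at 3.28 to 8.27 CPM in other endothelial cells.

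Transcripts of sinusoidal endothelium were lower in vessel cells than in other endothelial cells, and were also found in leukocytes. Stab2, a scavenger receptor for hyaluronan, stood at 393 and 222 CPM in corn oil and 239 and 179 CPM in CCl4 in vessel cells, at 1116 to 1763 CPM in other endothelial cells and at 116 to 465 CPM in leukocytes. The 4 sinusoidal genes Stab2, Clec4g, Dnase1l3 and Oit3 together took a median of 0.0646%, 0.0836%, 0.0484% and 0.0485% of a vessel cell's UMIs. The median was 0.883% to 1.44% in other endothelial cells and 0.0463%, 0.103%, 0% and 0% in leukocytes of the same libraries. The vessel cell median thus lay near that of leukocytes in corn oil and above it in CCl4. After thinning to 2000 UMIs, Clec4g had a UMI in 53.3%, 66.0%, 43.9% and 41.1% of vessel cells and in 41.3%, 49.3%, 20.2% and 9.55% of leukocytes. How much of the sinusoidal transcripts in vessel cells is free RNA was not tested. Calls are also given below for the 304 vessel cells that were low in these 4 genes.

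The profile of the class is described by the 20 genes with the highest lowest-library ratio to other endothelial cells, all at 50 CPM or more in vessel cells of every library. Vwf itself, Mgp and Cyp1a1 came first. Genes of secreted matrix proteins, taken with 1 cell surface proteoglycan, were 8 of the 20, a grouping made after they were seen and with no share over all genes beside it. They were Mgp, which blocks calcification, Fbln2 and Fbln5 (fibulins), Eln (elastin), Col8a1, Lox (which cross-links elastin and collagen), Spon1 and the proteoglycan Sdc1. Fbln2 stood at 1616 and 1855 CPM in corn oil and 883 and 1009 CPM in CCl4, against 5.14 to 11.9 CPM in other endothelial cells. Elastin stood at 492 and 222 CPM in corn oil and 368 and 249 CPM in CCl4, against 0.521 to 3.54 CPM, with corn oil 1 and CCl4 1 the higher library of each group. The vasoactive genes were Edn1 and Npr3, the clearance receptor for natriuretic peptides, at 499 and 558 CPM in corn oil and 253 and 582 CPM in CCl4. Signalling genes were Nrg1, a growth factor for ErbB receptors, the tyrosine kinase gene Bmx (103 to 164 CPM against 0.252 to 0.945 CPM), the chemerin receptor gene Cmklr1 and Cd200, which restrains myeloid cells. The rest were Gja5, Ehd2, Syt15, Thsd7a and Cyp1a1.

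Cyp1a1 encodes a cytochrome P450 that metabolises aromatic hydrocarbons and is a target of the aryl hydrocarbon receptor. It was among the genes with the highest ratio of vessel cells to other endothelial cells. Cyp1a1 stood at 654 and 711 CPM in corn oil and 325 and 255 CPM in CCl4 in vessel cells. This compares with 0.0651 to 4.25 CPM in other endothelial cells and 0.339 to 3.13 CPM in leukocytes. Cells with 2 or 3 Vwf UMIs held Cyp1a1 too, with a UMI in 47.0% and 47.9% of them in corn oil. In vessel cells the picture was as follows. It had a UMI in 80.0% and 67.9% of vessel cells in corn oil and in 56.1% and 41.1% in CCl4, and after thinning to 2000 UMIs per cell in 61.0%, 54.7%, 39.8% and 31.2%. Among leukocytes, whose median depths were 9476.5, 11100, 6797.5 and 5909 UMIs, 0.117% to 1.48% had a UMI. Expression of Cyp1a1 was thus seen in a majority of vessel cells of control mice and was at background in leukocytes. The gene lies at chr9:57687928-57703824 on the plus strand of GRCm38. The promoters shown are those of Cyp1a1 and of the clock output gene Dbp (chr7:45705088-45710203, plus strand), because both genes fell in vessel cells after CCl4. Each is the 250 bases before the RefSeq start on GRCm38.p6, at chr9:57697363-57697612 and chr7:45704997-45705246. The gene positions given above are from GENCODE, which places the starts elsewhere. The Cyp1a1 window lies inside that gene position, and the Dbp window overlaps the start of its own. Capitals mark matches of 4 motifs on either strand. The core bound by the aryl hydrocarbon receptor was searched as GCGTG. A motif of GATA factors was searched as GATAAG. The TATA box was searched as TATAAA, and the E-box of clock factors as its palindrome CACGTG.
Cyp1a1: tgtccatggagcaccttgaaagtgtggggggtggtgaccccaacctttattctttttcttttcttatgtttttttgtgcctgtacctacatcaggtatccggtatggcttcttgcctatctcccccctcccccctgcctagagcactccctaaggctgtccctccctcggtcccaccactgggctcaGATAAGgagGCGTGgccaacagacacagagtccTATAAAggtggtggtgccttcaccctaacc
Dbp: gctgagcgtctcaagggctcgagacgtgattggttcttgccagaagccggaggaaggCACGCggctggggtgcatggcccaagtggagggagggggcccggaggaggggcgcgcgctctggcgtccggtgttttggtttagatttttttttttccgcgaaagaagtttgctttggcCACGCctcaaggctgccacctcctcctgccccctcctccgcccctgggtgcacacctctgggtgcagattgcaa
The Cyp1a1 window holds 1 match of GATAAG, 63 bases before the start site. Its match of GCGTG lies 54 bases before the start and that of TATAAA 30 bases before. The Dbp window holds GCGTG 2 times, both on the opposite strand (CACGC). Neither window holds the E-box. Among 32851 RefSeq windows of the same length, 28.2% hold the receptor core, 6.55% the GATA motif, 12.4% the TATA box and 6.02% the E-box. A match describes these letters and is not evidence of a bound site.

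Genes of arterial and of venous endothelium were found together. Of the Notch ligands, Dll4 stood at 549 and 474 CPM in corn oil and 537 and 602 CPM in CCl4 (238 to 297 CPM in other endothelial cells) and Jag1 at 287 and 294 CPM in corn oil and 198 and 227 CPM in CCl4 (16.4 to 22.8 CPM). The Notch target Hey1 stood at 30.6 to 91.7 CPM against 2.61 to 10.2 CPM, while Hey2 and Heyl had no UMI in vessel cells. Efnb2, the arterial ephrin, stood at 291 to 588 CPM against 168 to 279 CPM, and Sox17, an arterial SoxF factor, at 292 to 474 CPM against 123 to 151 CPM. On the venous side, Nr2f2, the factor that holds back arterial fate, stood at 1380 to 2099 CPM against 959.6 to 1095 CPM, and the venous receptor gene Ephb4 at 419 to 591 CPM against 408 to 461 CPM. Adgrg6, an adhesion receptor, stood at 846 to 1387 CPM against 22.2 to 54.4 CPM. The rule therefore takes cells with arterial and venous transcripts and does not separate hepatic artery from portal vein. Other venous endothelium with few Wnt9b and Rspo3 transcripts is not kept out by it either. The central vein list without these 2 genes summed to 1661 and 1403 CPM in corn oil and 1345 and 1076 CPM in CCl4 in vessel cells. In other endothelial cells it summed to 1732 and 1462 CPM in corn oil and 1281 and 1040 CPM in CCl4. Cdh13, a gene of that list, was higher in vessel cells than in other endothelial cells of every library.

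Within the class, 297 cells (80.7%) had a Gja5 UMI and 71 had none. These subsets were drawn after the values had been seen and are described without a test. Mgp stood at 232 and 294 CPM in corn oil and 619 and 410.3 CPM in CCl4 in cells with Gja5 and at 67.4 and 13.1 CPM in corn oil and 96.4 and 155 CPM in CCl4 in those without. Clu, a secreted chaperone, stood at 364 to 618 CPM with Gja5 and 95.1 to 217 CPM without, and Npr3 at 306 to 637 CPM and 78.3 to 301 CPM. Semaphorin gene Sema3g, an arterial marker, stood at 70.7 to 152 CPM and 12.1 to 47.6 CPM. These 4 genes were higher in the cells with Gja5 in all 4 libraries. Col13a1, a transmembrane collagen, went the other way, at 51.4 to 82.5 CPM with Gja5 and 144 to 277 CPM without, as did Itsn1 (42.3 to 77.3 CPM and 105 to 199 CPM). Ednrb, the endothelin B receptor, was at 1624 to 3159 CPM and 1530 to 3332 CPM, and so did not separate the subsets. Cells without Gja5 also held more Stab2 in 3 of 4 libraries (209 to 577 CPM against 134 to 336 CPM over all), and the part of sinusoidal RNA in these differences was not tested.

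Vessel cells made up a larger share of endothelial cells after CCl4, from 2.29% and 1.12% in corn oil to 3.75% and 4.65% in CCl4. The group means were 1.70% ± 0.832 (SD, n = 2) and 4.20% ± 0.634 (SD, n = 2), and the groups did not overlap. An exact permutation test (two-sided) gave p = 0.333, the smallest that 2 mice against 2 can give, so the difference cannot pass a threshold of 0.05. The exact 95% binomial intervals were 1.88% to 2.77% and 0.837% to 1.46% in corn oil, and 3.06% to 4.55% and 3.84% to 5.57% in CCl4. They cover counting error only. The numbers of vessel cells overlapped between the groups (105 and 53 against 98 and 112), while the endothelial cells they are divided by went from 4582 and 4751 to 2611 and 2409. As a share of all filtered cells, vessel cells were 1.53% and 0.731% in corn oil and 1.60% and 1.99% in CCl4, also with exact permutation p = 0.333, and corn oil 1 then lay next to CCl4 1.

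Depth enters the rule, since a deeper cell reaches 4 Vwf UMIs more easily. When every cell was thinned to 2000 UMIs, leaving out the 60 shallower cells of corn oil 2, and 2 Vwf UMIs were asked for, the share of endothelial cells was 1.85%, 1.20%, 2.63% and 3.78%. The groups still did not overlap. Of all filtered cells the thinned share was 1.34%, 0.849%, 1.30% and 1.80%, and there corn oil 1 lay above CCl4 1.

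**Figure D2:**
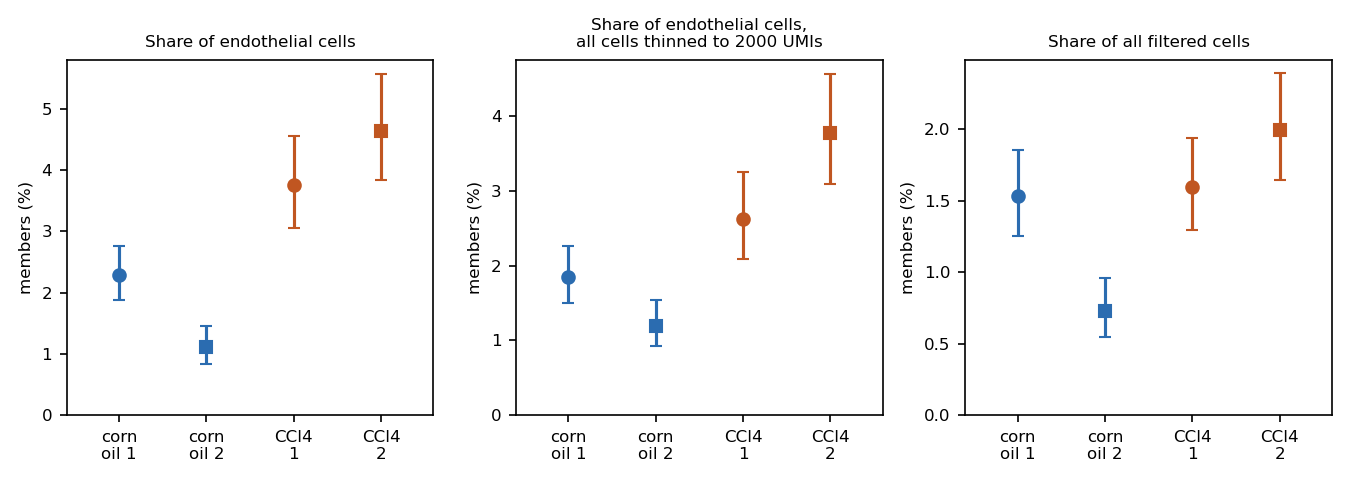
Share of vessel cells (%) in each library with exact 95% binomial intervals, of endothelial cells, of endothelial cells after thinning to 2000 UMIs, and of all filtered cells. Both CCl4 libraries lie above both corn oil libraries in the left and middle panels, while corn oil 1 and CCl4 1 are close, at 1.53% and 1.60%, in the right panel.

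The first question of the design is what CCl4 changed in vessel cells. Of 7280 genes tested, leaving out the genes of the rule, 28 rose (0.385%) and 15 fell (0.206%), 43 in all (0.591%). An unadjusted p under 0.05 was found for 617 genes. DESeq2 called 32 genes and all were among the 43. The genes that rose include acute phase and inflammatory genes, secreted signals and chaperones of the endoplasmic reticulum, and those that fell include Cyp1a1, Fbln2, Cst3, the cyclin gene Ccnd1 and the clock gene Dbp. The groups did not overlap in any of the 43 genes, beside 38.9% of all genes tested. Of the 42 that could be tested in other endothelial cells too, 32 were called there as well, all in the same direction, in a class where 2.53% of genes rose and 2.16% fell (4.69% in all). The same 4 mice gave both classes, so this is not independent support.

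Serpina3n and Lcn2, acute phase genes that inflammatory cytokines induce, rose, and so did Itih3. Serpina3n, a secreted serine protease inhibitor, stood at 5.82 and 0 CPM in corn oil and 245 and 281 CPM in CCl4 in vessel cells. Both CCl4 libraries were high and both corn oil libraries near 0 (log2 5.91, SE 0.44, adjusted p = 1.68e-05). It had a UMI in 53.1% and 55.4% of vessel cells in CCl4 and in 2.86% and 0% in corn oil, where 0 of 53 cells allows a share of cells with a UMI of up to 5.66% (3 cells of 53). After thinning to 2000 UMIs the shares were 33.7% and 34.8% in CCl4 and 0% in both corn oil libraries. In leukocytes of the CCl4 libraries the gene was at 66.0 and 45.9 CPM, with a UMI in 15.6% and 10.1% of cells at median depths of 6797.5 and 5909 UMIs. The level in vessel cells was above that of leukocytes. Other endothelial cells shared the rise in detection, with a UMI of Serpina3n in 0.272% and 0.387% of cells in corn oil and 36.35% and 40.37% in CCl4. Lcn2, an iron-binding acute phase protein, stood at 1.46 and 15.3 CPM in corn oil and 56.8 and 144 CPM in CCl4, with CCl4 2 the highest (log2 4.17, SE 0.69, adjusted p = 0.0103). Itih3, which stabilises hyaluronan matrix, stood at 4.37 and 3.82 CPM in corn oil and 77.9 and 62.6 CPM in CCl4 and did not overlap (log2 3.99, SE 0.52, adjusted p = 0.00217). The call for Lcn2 was lost with DESeq2 (adjusted p = 0.828) and limma-voom (adjusted p = 0.129). Its log2 change was 2.72 when corn oil 1 was left out, 5.96 when corn oil 2 was, and 3.30 when CCl4 2 was. For Serpina3n the fitted value was 10.1 when corn oil 1 was left out, where the control that remains has no UMI, so that value is no measure of size. In a list of acute phase, protease inhibitor and oxysterol genes that was drawn from earlier results of these data, 5 of 21 genes tested rose (Serpina3n, Lcn2, Adamts4, Csf2rb2 and Ctsj) and 1 fell (Prelp), beside 0.385% and 0.206% of all genes, which is not independent evidence of a direction.

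Other genes that rose were higher still in other endothelial cells. Ctsj, a cathepsin gene, had no UMI in vessel cells of corn oil and stood at 40.6 and 24.7 CPM in CCl4, which is at least 10.3-fold higher (with 3 UMIs set as the floor over the corn oil group, adjusted p = 0.014). It stood at 61.4 and 120.5 CPM in other endothelial cells of CCl4 and at 12.8 and 8.33 CPM in leukocytes. Csf2rb2, a cytokine receptor subunit, had 1 UMI in corn oil and 65 in CCl4 over the vessel cells of each group. This is a ratio of 47.7 with a 95% counting interval of 8.27 to 1914. Adamts4, an aggrecanase, stood at 5.82 and 3.82 CPM in corn oil and 74.7 and 32.0 CPM in CCl4 (log2 3.28, SE 0.64, adjusted p = 0.03), and Ctla2a, a cathepsin inhibitor, at 132 and 138 CPM in corn oil and 508 and 482 CPM in CCl4 (log2 1.88, SE 0.21, adjusted p = 5.22e-04). Csf2rb2 was also at 94.4 and 114 CPM in leukocytes of the CCl4 libraries, and Adamts4 at 35.9 and 10.8 CPM. The part of free RNA from other cells in these 4 changes was not tested. Among the 304 vessel cells low in sinusoidal transcripts, 37 of the 43 calls were found again, Csf2rb2, Adamts4 and Ctla2a included. Of the other 6, Ctsj and Hgf fell under the filter on low counts there, and Selp, Ctsb, Chst2 and Car3 were not called. Adamts4 was no longer called without CCl4 1 (log2 2.58), by DESeq2 (adjusted p = 0.0815) or by limma-voom (adjusted p = 0.239). Nor was it called when vessel cells were chosen on thinned counts and their full counts were summed (adjusted p = 0.0754).

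Fjx1, a secreted Golgi kinase homologue, rose in vessel cells and was low in the other classes examined. It lies at chr2:102449366-102452499 on the minus strand and stood at 2.91 and 7.65 CPM in corn oil and 87.6 and 83.0 CPM in CCl4 in vessel cells (log2 4.25, SE 0.49, adjusted p = 8.60e-04), against 0 to 0.628 CPM in other endothelial cells, 0 to 0.896 CPM in leukocytes, 0.263 to 4.41 CPM in stellate cells and fibroblasts and 0 to 0.891 CPM in endothelial cells with Wnt9b and Rspo3. Cells with 2 or 3 Vwf UMIs had 0 to 8.71 CPM. The log2 change in vessel cells was 3.45 without corn oil 1. The groups did not overlap, and 25.5% and 25.9% of vessel cells in CCl4 had a UMI, against 2 of 105 and 2 of 53 cells in corn oil and 0% to 0.583% of leukocytes. After thinning to 2000 UMIs the shares were 19.4% and 13.4% in CCl4 and 0.952% and 3.77% in corn oil. The test of the difference from other endothelial cells did not pass (log2 2.56, SE 1.45, adjusted p = 0.652), with almost no counts there to set a change against.

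Secreted signals and matrix genes came next. Inhbb, the subunit of activin B, stood at 48.0 and 84.1 CPM in corn oil and 406 and 369.7 CPM in CCl4 (log2 2.66, SE 0.27, adjusted p = 4.06e-04), so both CCl4 libraries lay well above both corn oil libraries. Lrg1, a secreted glycoprotein that modifies TGF-beta signalling in endothelium, stood at 694 and 451 CPM in corn oil and 2524 and 1598 CPM in CCl4 (log2 1.82, SE 0.24, adjusted p = 0.00229). Lrg1 was already abundant in corn oil and rose in both CCl4 mice. Mgp stood at 207 and 222 CPM in corn oil and 495 and 386 CPM in CCl4 and rose (log2 1.04, SE 0.21, adjusted p = 0.0357). Adamts1, a protease of the same family as Adamts4, stood at 470.1 and 470.4 CPM in corn oil and 953 and 876 CPM in CCl4 and rose as well (log2 0.96, SE 0.17, adjusted p = 0.0177), whereas in other endothelial cells it was not called (log2 0.39, adjusted p = 0.377) and the difference between the classes was (log2 0.66, adjusted p = 0.0075). Fbln2, whose values are given above, fell (log2 -0.87, SE 0.17, adjusted p = 0.0278), while Eln (log2 -0.27, adjusted p = 0.88) and Fbln5 (log2 0.13, adjusted p = 0.947) were not called. Of 31 matrix genes tested, 3 rose and 1 fell, with a median log2 change of 0.13 beside -0.01 over all genes tested. Selp, the P-selectin that endothelium stores with Vwf and uses to catch leukocytes, stood at 67.0 and 57.4 CPM in corn oil and 172 and 157 CPM in CCl4 and rose without overlap (log2 1.37, SE 0.26, adjusted p = 0.0223).

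Of 24 chaperone and folding genes of the endoplasmic reticulum tested, 3 rose and none fell, beside 0.385% and 0.206% of all genes. The list's median log2 change was 0.67, against -0.01 over all genes tested. Hyou1 stood at 43.7 and 49.7 CPM in corn oil and 154 and 127 CPM in CCl4 (log2 1.61, SE 0.28, adjusted p = 0.0137). Calr, calreticulin, stood at 776 and 730.4 CPM in corn oil and 1362 and 1572 CPM in CCl4 (log2 0.96, SE 0.17, adjusted p = 0.0147). Hsp90b1 stood at 1202 and 1220 CPM in corn oil and 2094 and 2244 CPM in CCl4 (log2 0.84, SE 0.16, adjusted p = 0.0227). Each was higher in both CCl4 libraries than in both corn oil libraries. Hspa5, the main chaperone of this compartment, was at 1348 and 612 CPM in corn oil and 3606 and 1630 CPM in CCl4 and was not called (log2 1.39, adjusted p = 0.115), with libraries of each group far apart. In other endothelial cells 5 of 25 rose, beside 2.53% of all genes, with a median of 0.79. Fosl2 of the AP-1 family (log2 1.64, SE 0.28, adjusted p = 0.0134), the X-linked gene Armcx4 (log2 1.78, SE 0.28, adjusted p = 0.00681), Plk2 (log2 1.26, SE 0.20, adjusted p = 0.00681) and the lysosomal proteases Lgmn (log2 1.30, SE 0.22, adjusted p = 0.0103) and Ctsb (log2 0.84, SE 0.16, adjusted p = 0.0209) also rose.

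Among the 15 genes that fell, Cyp1a1 had the lowest level in other endothelial cells of corn oil mice. Its 654 and 711 CPM in corn oil went to 325 and 255 CPM in CCl4, with no overlap (log2 -1.23, SE 0.19, adjusted p = 0.00717). Cst3, the protease inhibitor cystatin C, stood at 2930 and 2788 CPM in corn oil and 1113 and 1221 CPM in CCl4 (log2 -1.29, SE 0.16, adjusted p = 0.00138), and Ephx1, a microsomal epoxide hydrolase, at 246 and 298 CPM in corn oil and 115 and 106 CPM in CCl4 (log2 -1.28, SE 0.23, adjusted p = 0.0147). Bcam, a laminin receptor of the vessel wall, stood at 303 and 309.8 CPM in corn oil and 161 and 131 CPM in CCl4 (log2 -1.07, SE 0.22, adjusted p = 0.0372), and without CCl4 2 it was no longer called (adjusted p = 0.229). Txnip, which binds thioredoxin and limits glucose uptake, stood at 978 and 922 CPM in corn oil and 425 and 461 CPM in CCl4 (log2 -1.10, SE 0.17, adjusted p = 0.00717). Depp1, like Txnip a target of FoxO factors, stood at 128 and 161 CPM in corn oil and 42.2 and 43.7 CPM in CCl4 (log2 -1.71, SE 0.27, adjusted p = 0.00758). In all 6 genes both CCl4 libraries lay below both corn oil libraries.

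Of 13 clock genes tested 1 fell, Dbp, beside 0.206% of all genes, and the list's median was -0.83. Dbp, a transcription factor driven directly by the clock, stood at 191 and 191 CPM in corn oil and 35.7 and 27.6 CPM in CCl4 (log2 -2.59, SE 0.27, adjusted p = 4.62e-04), and Klf9, a circadian and glucocorticoid-responsive factor, at 732 and 524 CPM in corn oil and 290.5 and 250.3 CPM in CCl4 (log2 -1.23, SE 0.21, adjusted p = 0.0115). Of the other clock genes, Hlf (log2 -2.36, adjusted p = 0.0728), Per2 (log2 -1.50, adjusted p = 0.284), Nr1d1 (log2 -1.25, adjusted p = 0.32) and Tef (log2 -1.06, adjusted p = 0.144) did not pass. In other endothelial cells 8 of 17 clock genes fell, beside 2.16% of all genes. The hour of collection is not in the labels used here, so treatment and time of day cannot be told apart for these genes.

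Cyclin D1 (Ccnd1), which drives entry into the cell cycle, stood at 266 and 333 CPM in corn oil and 125 and 75.7 CPM in CCl4 in vessel cells (log2 -1.56, SE 0.26, adjusted p = 0.0114). It was the only gene called of 15 cell cycle genes tested, and the mitotic genes Mki67, Ccnb1, Ccnb2, Aurkb, Bub1 and Plk1 had no UMI in any vessel cell of either group. The call for Ccnd1 was lost when cells with 2 or 3 Vwf UMIs were added (log2 -0.79, adjusted p = 0.313). Gas6, a ligand of TAM receptors, at 191 and 118 CPM in corn oil and 40.6 and 34.9 CPM in CCl4 (log2 -2.09, SE 0.30, adjusted p = 0.00468), and the sinusoidal gene Ehd3, at 1795 and 2375 CPM in corn oil and 933 and 729 CPM in CCl4 (log2 -1.32, SE 0.19, adjusted p = 0.00471), fell too. Both were higher in other endothelial cells, with Gas6 at 109 and 97.0 CPM in corn oil and 27.9 and 19.7 CPM in CCl4 in leukocytes and Ehd3 at 1331 and 1812 CPM in corn oil and 375 and 151 CPM in CCl4 there. The background of both genes thus moved in the same direction, and its part was not tested. Gas6 was not called when vessel cells were chosen on thinned counts and their full counts were summed (log2 -1.11, adjusted p = 0.306). Car3, a carbonic anhydrase of adipose tissue and liver, had 32 UMIs in corn oil and 3 in CCl4 over the vessel cells of each group, a ratio of 0.0689 with a 95% counting interval of 0.0135 to 0.220. Its call was lost without corn oil 2 (adjusted p = 0.0592) and without CCl4 2 (log2 -2.79, adjusted p = 0.119), and without CCl4 1 the log2 change was -7.27.

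**Figure D3:**
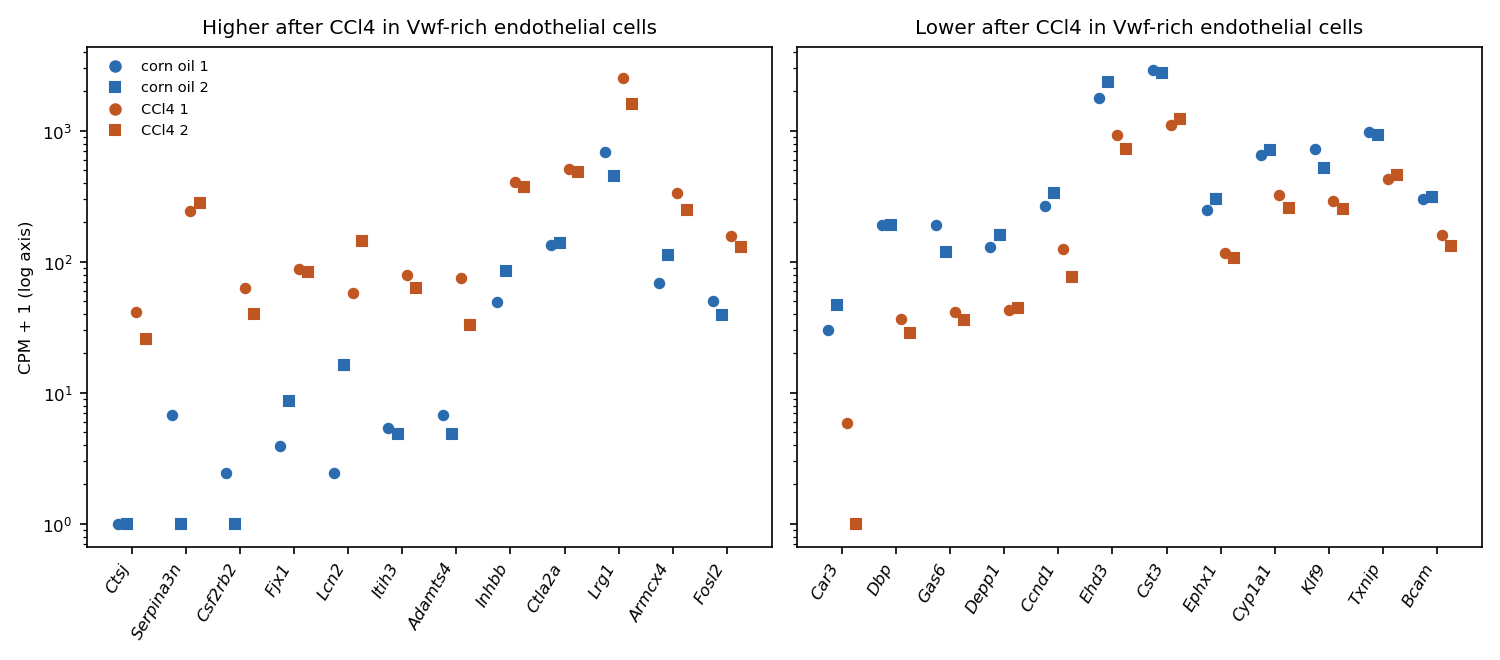
Levels (CPM + 1, log axis) in vessel cells of the 12 genes that rose and the 12 that fell most after CCl4 under the naming rule, 1 point per library. Both CCl4 points lie on one side of both corn oil points for each gene, which the naming rule requires, and points at 1 are libraries with no UMI.

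The genes that define the class were not among those called. Vwf chose the cells and is not tested. Gja5 (log2 0.61, SE 0.22, adjusted p = 0.396), Mecom (log2 -0.01, SE 0.28, adjusted p = 0.994), Edn1 (log2 -0.40, SE 0.19, adjusted p = 0.587) and Sox18 (log2 0.37, SE 0.17, adjusted p = 0.592) did not pass. Of 17 arterial genes tested none was called, with a median of -0.01. Gja5 was highest in CCl4 2, while CCl4 1 lay near the corn oil libraries. In the endothelin system, Ece1, the enzyme that activates endothelin, stood at 719 and 597 CPM in corn oil and 797 and 723 CPM in CCl4 (log2 0.20, adjusted p = 0.841), Ednrb at 2760 and 1652 CPM in corn oil and 2407 and 3186 CPM in CCl4 (log2 0.33, adjusted p = 0.745), and Ednra, the receptor of smooth muscle and stellate cells, had no UMI. Nos3, the endothelial nitric oxide synthase, stood at 271 and 184 CPM in corn oil and 271 and 209.6 CPM in CCl4 and overlapped between the groups (log2 0.04, adjusted p = 0.978).

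Notch genes did not pass the test in vessel cells either (0 of 13 tested, median 0.15). Notch1 was at 489 and 520.1 CPM in corn oil and 740.1 and 661 CPM in CCl4 (log2 0.48, adjusted p = 0.436). Notch4, the endothelial receptor, was at 99.0 and 76.5 CPM in corn oil and 135 and 112 CPM in CCl4 (log2 0.44, adjusted p = 0.694). The targets Hey1 (log2 0.99, adjusted p = 0.353) and Hes1 (log2 0.51, adjusted p = 0.436) did not pass either. The CCl4 libraries lay above the corn oil libraries for these 4 genes, but 38.9% of all genes tested had groups that did not overlap. For Jag1, whose values are given above, the CCl4 libraries lay below. No direction of the Notch genes can be read from this. For Dll4 (log2 0.15, adjusted p = 0.9) the groups overlapped. In the BMP and TGF-beta list 1 of 21 rose, Inhbb. Bmp2, a ligand that sinusoidal cells use to induce hepcidin, was at 594 and 516 CPM in corn oil and 502 and 381 CPM in CCl4 against 2076 to 3108 CPM in other endothelial cells (log2 -0.34, adjusted p = 0.693) and was not called. Bmp6, another such ligand, was at 88.8 and 95.6 CPM in corn oil and 135 and 85.9 CPM in CCl4 (log2 0.26, adjusted p = 0.876). Bmp4 was at 24.7 and 15.3 CPM in corn oil and 117 and 45.1 CPM in CCl4 (log2 1.87, adjusted p = 0.144) and at 0.390 to 0.661 CPM in other endothelial cells. The receptors Bmpr2 (log2 -0.01, adjusted p = 0.995), Acvrl1 (log2 0.28, adjusted p = 0.842) and Eng (log2 0.09, adjusted p = 0.947) and the target genes Id1 (log2 0.27, adjusted p = 0.837) and Id3 (log2 0.25, adjusted p = 0.78) were not called.

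The remaining lists held few calls, to be read against 0.385% of all genes higher and 0.206% lower. Venous genes gave 2 higher of 15 tested (Lrg1 and Selp), haemostasis genes 1 of 15 (Selp) and adhesion and chemokine genes 2 of 18 (Lcn2 and Selp). Sinusoidal genes gave 1 lower of 27 (Ehd3), and shear stress genes 1 lower of 12 (Cyp1a1). None was called of 24 genes of continuous capillary endothelium, 17 vasoregulation genes, 23 VEGF and angiogenesis genes, 35 endothelial transcription factors, 19 glycolysis and hypoxia genes, 37 interferon response genes and 37 immediate early genes. Among the highest of these, Klf2, a factor induced by flow, was at 3602 and 2887 CPM in corn oil and 3497 and 2515 CPM in CCl4 (log2 -0.11, adjusted p = 0.928), and Ly6a, the antigen Sca-1, at 5820 and 6352 CPM in corn oil and 5226 and 5999 CPM in CCl4 (log2 -0.12, adjusted p = 0.906). MHC class II genes were too low in vessel cells to be tested.

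The second question is whether vessel cells answered CCl4 as other endothelial cells did. This was tested as the difference of the CCl4 effect between the classes, with each mouse as a block. The fit shares spread estimates between genes, so a gene's SE and p do not measure its own spread between mice alone. Of 12210 genes, 86 had a higher change in vessel cells (0.704%) and 73 a lower one (0.598%). Limma-voom, tried after seeing the data, called 53 genes, of which 41 were among these 159, and an unadjusted p under 0.05 was found for 1052. Of the 73 genes, 40 rose after CCl4 in other endothelial cells, where 2.53% of these genes rose, and 3 rose in vessel cells. In corn oil, 66 of the 73 were higher in vessel cells than in other endothelial cells, beside 54.6% of all genes tested. Of the 86 genes, 34 fell in other endothelial cells, where 2.20% of these genes fell, and 4 rose in vessel cells.

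Of 17 venous genes tested 3 had a lower change in vessel cells and none a higher one, and of 23 vasoregulation genes 4 had a lower change and none a higher one. Over all genes these shares were 0.598% lower and 0.704% higher. The former were Ednrb, Lrg1 and Selp, and the latter Ace, Edn1, Ednrb and Gucy1b1. Ednrb stood at 2760 and 1652 CPM in corn oil and 2407 and 3186 CPM in CCl4 in vessel cells and at 226 and 58.2 CPM in corn oil and 521 and 677 CPM in CCl4 in other endothelial cells, and its change was lower in vessel cells (log2 -1.87, SE 0.16, adjusted p = 2.77e-28). In other endothelial cells both CCl4 libraries lay above both corn oil libraries, while in vessel cells the groups overlapped. The corn oil libraries of other endothelial cells were themselves far apart for Ednrb (226 and 58.2 CPM), more so than those of vessel cells. The gap between the classes thus differed between the control mice, and the SE and adjusted p do not measure that spread alone. Lrg1 rose in both classes, but other endothelial cells stood at 42.2 and 30.3 CPM in corn oil and 580.2 and 379 CPM in CCl4, and the difference was called (log2 -1.82, SE 0.16, adjusted p = 1.87e-24). Ace, angiotensin-converting enzyme, was at 278 and 206 CPM in corn oil and 305 and 378 CPM in CCl4 in vessel cells and 3.70 and 4.21 CPM in corn oil and 22.6 and 32.2 CPM in CCl4 in others (log2 -2.26, SE 0.23, adjusted p = 2.21e-19). Selp was at 4.67 and 3.31 CPM in corn oil and 61.4 and 37.1 CPM in CCl4 in other endothelial cells (log2 -2.09, SE 0.32, adjusted p = 6.26e-08), and Ly6c1, a surface antigen of continuous endothelium, at 505 and 287 CPM in corn oil and 565 and 846 CPM in CCl4 in vessel cells and 7.86 and 8.65 CPM in corn oil and 51.6 and 46.5 CPM in CCl4 in others (log2 -1.74, SE 0.18, adjusted p = 6.44e-18). For Ednrb, Ace and Ly6c1 every vessel cell value stayed above every value of other endothelial cells, so the gap between the classes narrowed without closing. For Lrg1 and Selp the vessel cells of corn oil 2 lay below other endothelial cells of CCl4 1.

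More genes shared this pattern. Of 31 genes of continuous capillary endothelium 6 had a lower change in vessel cells and none a higher one, beside 0.598% and 0.704% of all genes, among them Cd34 (log2 -1.23, adjusted p = 2.89e-09), Cd200 (log2 -1.22, adjusted p = 2.34e-04), Fabp4 (log2 -0.89, adjusted p = 5.39e-06) and Col4a1. Cd34, a sialomucin, was at 359.5 and 382 CPM in corn oil and 360.3 and 505 CPM in CCl4 in vessel cells and 38.5 and 33.2 CPM in corn oil and 98.8 and 108 CPM in CCl4 in others. Ch25h, which makes 25-hydroxycholesterol, was at 59.7 and 88.0 CPM in corn oil and 69.8 and 90.2 CPM in CCl4 in vessel cells, with no separation of the groups, and at 3.15 and 4.49 CPM in corn oil and 63.9 and 31.3 CPM in CCl4 in others (log2 -3.35, SE 0.35, adjusted p = 1.84e-18). Cd63, a membrane protein of the granules that store Vwf, was at 167 and 168 CPM in corn oil and 286 and 355 CPM in CCl4 in vessel cells and 23.8 and 23.4 CPM in corn oil and 176 and 176 CPM in CCl4 in others (log2 -1.90, SE 0.20, adjusted p = 2.32e-17). The class markers Edn1 (log2 -0.86, adjusted p = 5.17e-04) and Mecom (log2 -0.69, adjusted p = 0.00564) also had a lower change in vessel cells. Edn1 was at 7.35 and 8.08 CPM in corn oil and 10.2 and 11.7 CPM in CCl4 in other endothelial cells. Neither gene was called in either class alone.

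Genes named by the size of the difference included 5 more with a lower change. Sema3g went from 131 and 103 CPM to 56.8 and 71.3 CPM in vessel cells, which was not called there (log2 -0.90, adjusted p = 0.257), and stood at 0.0420 to 2.34 CPM in other endothelial cells (log2 -3.98, SE 0.71, adjusted p = 6.58e-06). Sema3g had a UMI in 0.0227% and 0.0860% of other endothelial cells in corn oil and 0.5705% and 0.803% in CCl4. The part of vessel-type cells with 0 or 1 Vwf UMI in this was not tested. The difference for Sema3g was -2.82 when corn oil 1 was left out and -6.35 when corn oil 2 was. Emp1, an epithelial membrane protein gene, stood at 166 and 84.1 CPM in corn oil and 235 and 166 CPM in CCl4 in vessel cells and 0.798 and 1.37 CPM in corn oil and 11.4 and 5.01 CPM in CCl4 in others (log2 -2.18, SE 0.38, adjusted p = 4.07e-06), and the difference was -1.20 when corn oil 1 was left out and -2.99 when corn oil 2 was. Gucy1b1, a subunit of the nitric oxide receptor guanylate cyclase, stood at 59.7 and 72.7 CPM in corn oil and 48.7 and 50.9 CPM in CCl4 in vessel cells and 5.29 and 7.09 CPM in corn oil and 15.1 and 26.5 CPM in CCl4 in others (log2 -2.08, SE 0.41, adjusted p = 7.97e-05). Cfap69, a cilia protein gene, stood at 13.1 and 45.9 CPM in corn oil and 74.7 and 46.6 CPM in CCl4 in vessel cells and 6.77 and 10.6 CPM in corn oil and 143 and 122 CPM in CCl4 in others (log2 -2.60, SE 0.44, adjusted p = 1.46e-06), and so was lower in vessel cells than in others after CCl4. Synpo, an actin-binding protein gene, had a lower change too (log2 -2.13, SE 0.47, adjusted p = 9.12e-04). Of these 5, Sema3g, Emp1 and Synpo were not called without corn oil 1, Emp1 and Synpo without CCl4 1, Cfap69 without corn oil 2 and Gucy1b1 without CCl4 2. Limma-voom called Cfap69 only (adjusted p = 0.0518 to 0.124 for the other 4).

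Genes with a higher change in vessel cells were of other kinds. Vegfa, the main growth factor of endothelium, stood at 16.0 and 30.6 CPM in corn oil and 68.2 and 59.7 CPM in CCl4 in vessel cells and at 14.96 and 21.5 CPM in corn oil and 12.3 and 11.9 CPM in CCl4 in other endothelial cells. The change was higher in vessel cells (log2 2.19, SE 0.45, adjusted p = 2.13e-04), although it was not called in vessel cells alone (log2 1.62, adjusted p = 0.115). In leukocytes Vegfa was at 13.4 and 21.6 CPM in corn oil and 76.1 and 70.1 CPM in CCl4, so it was higher after CCl4 there too, and the part of leukocyte RNA was not tested. Limma-voom did not call the difference (adjusted p = 0.074). Plk2, a stress-induced kinase, stood at 199 and 206 CPM in corn oil and 492 and 476 CPM in CCl4 in vessel cells and 368 and 409 CPM in corn oil and 490.2 and 417 CPM in CCl4 in others (log2 1.08, SE 0.18, adjusted p = 8.76e-07). Adam23, an adhesion protein, stood at 135 and 184 CPM in corn oil and 523 and 387 CPM in CCl4 in vessel cells and 750.2 and 1093 CPM in corn oil and 1128 and 1077 CPM in CCl4 in others (log2 1.29, SE 0.19, adjusted p = 1.45e-08). For Plk2 and Adam23 vessel cells were well below other endothelial cells in corn oil and nearer to them after CCl4. Inhbb changed more in vessel cells as well (log2 1.06, SE 0.24, adjusted p = 0.00108), although a larger share of other endothelial cells had a UMI in every library.

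A further set fell in other endothelial cells and was not called in vessel cells. Gja4, connexin 37, was at 434 and 539 CPM in corn oil and 476 and 518 CPM in CCl4 in vessel cells and 501 and 506 CPM in corn oil and 251 and 293 CPM in CCl4 in others (log2 1.01, SE 0.16, adjusted p = 3.98e-07). Nrp1, a co-receptor of VEGF and semaphorins, was at 451 and 379 CPM in corn oil and 360.3 and 349 CPM in CCl4 in vessel cells and 1143 and 1084 CPM in corn oil and 492 and 572 CPM in CCl4 in others (log2 0.89, SE 0.17, adjusted p = 6.79e-05). Ltbp4, which binds latent TGF-beta into elastic fibres, was at 1522 and 1759 CPM in corn oil and 1204 and 1244 CPM in CCl4 in vessel cells and 832 and 854 CPM in corn oil and 389 and 330.4 CPM in CCl4 in others (log2 0.89, SE 0.15, adjusted p = 3.89e-06), and Bmp6 was at 196 and 230.1 CPM in corn oil and 109.7 and 109 CPM in CCl4 in others (log2 1.24, SE 0.24, adjusted p = 3.66e-05). Cdh13, T-cadherin, was at 511 and 516 CPM in corn oil and 351 and 205 CPM in CCl4 in vessel cells and 188 and 154 CPM in corn oil and 61.5 and 25.5 CPM in CCl4 in others, so its CCl4 libraries were lower in both classes, but less so in vessel cells (log2 1.23, SE 0.18, adjusted p = 2.89e-09). Rasgrf2 (log2 2.17, SE 0.42, adjusted p = 7.71e-05), Lmcd1 (log2 2.13, SE 0.51, adjusted p = 0.00363) and the clock output gene Hlf (log2 2.24, SE 0.62, adjusted p = 0.0254) completed the genes named by size. Limma-voom called none of these 3 (adjusted p = 0.0574 to 0.179). Rasgrf2 and Lmcd1 were not called without corn oil 1 (adjusted p = 0.0907 and 0.237), and Hlf was not called without corn oil 2 (adjusted p = 0.214).

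Of 40 immediate early genes, which the handling of tissue also induces, 7 had a higher change in vessel cells and none a lower one, beside 0.704% and 0.598% of all genes. Fos was at 10300 and 9430 CPM in corn oil and 8726 and 8747 CPM in CCl4 in vessel cells and 6609 and 7043 CPM in corn oil and 5096 and 3377 CPM in CCl4 in others (log2 0.61, adjusted p = 0.0274). Egr1 was at 4611 and 5973 CPM in corn oil and 3593 and 4162 CPM in CCl4 in vessel cells and 3584 and 4469 CPM in corn oil and 2531 and 1703 CPM in CCl4 in others (log2 0.58, adjusted p = 0.0329). Klf4, a factor induced by flow, was at 1904 and 1346 CPM in corn oil and 1641 and 1084 CPM in CCl4 in vessel cells and 924 and 817 CPM in corn oil and 584 and 339 CPM in CCl4 in others (log2 0.75, adjusted p = 2.37e-04). CCl4 2 was the lowest library of other endothelial cells for all 3 genes. In the lists for interferon response and endoplasmic reticulum folding no difference between the classes was called (0 of 42 and 0 of 25 genes).

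**Figure D4:**
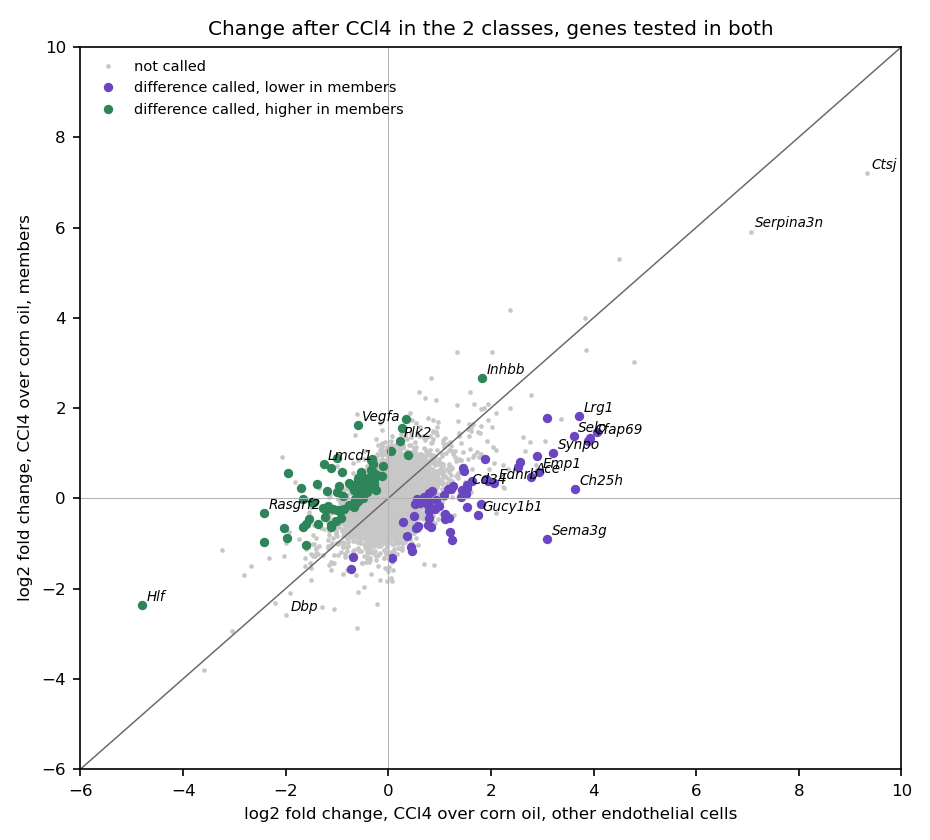
Log2 fold change after CCl4 in vessel cells (vertical) against other endothelial cells (horizontal) for each gene tested in both, with genes whose difference was called coloured and the line of equal change drawn. Genes with a lower change in vessel cells lie to the right of the line, for example Lrg1 at 3.72 and 1.82, and those with a higher change to its left, for example Vegfa at -0.59 and 1.62.

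**Figure D5:**
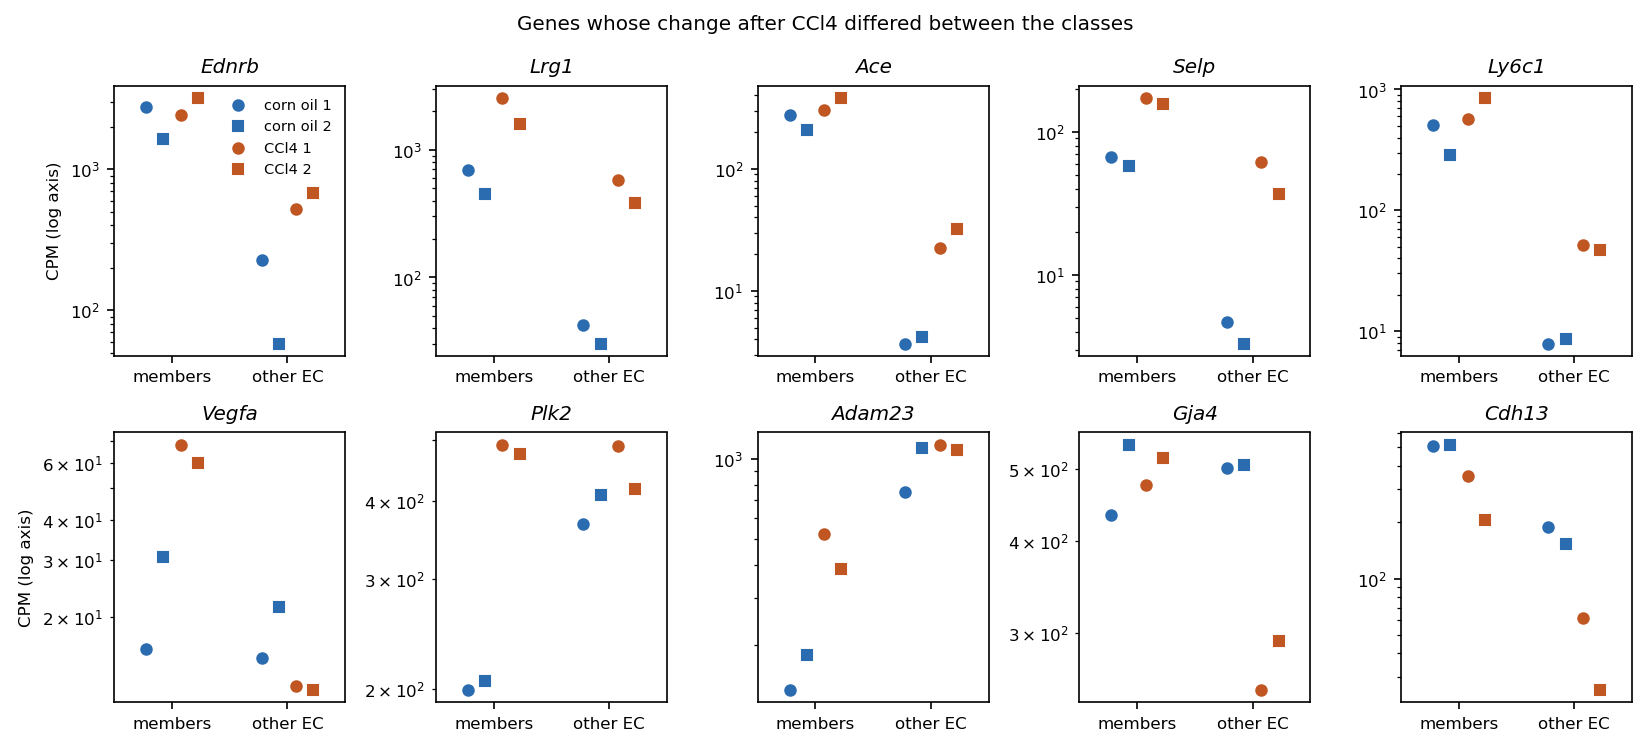
Levels (CPM, log axes with a separate scale for each gene) in vessel cells and other endothelial cells (other EC), 1 point per library. For Ednrb, Lrg1, Ace, Selp and Ly6c1 the groups lie further apart in other endothelial cells than in vessel cells, and for Vegfa, Plk2 and Adam23 they lie further apart in vessel cells.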

How the data were processed

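Single-cell libraries (BD Rhapsody whole transcriptome) of 2 corn oil and 2 CCl4 mice were used. The deposited tables hold counts of unique molecules per cell and gene, made by the authors with BD Rhapsody pipeline 1.9.1 on GRCm38 with PhiX and GENCODE M19, per the file headers. No aligner is named in the labels or headers used here. A gene missing from a table was taken as 0. UMIs of the cells of a class were summed per library, since cells are not replicates. Sums were fitted with edgeR 4.0.16 in R 4.3.3 (TMM, filterByExpr, quasi-likelihood test, Benjamini-Hochberg adjustment over all genes tested), with treatment alone within a class and with mouse as a block, class, and class by treatment for the difference between classes. Genes of the membership rule were fitted and left out of the counts of calls. The scripts were tested on simulated counts with 1 dispersion set for all genes. Of genes given a true log2 change of 1 in size, 46.7% were recovered in vessel cells and 27% for the difference between classes. At a log2 change of 2 the shares were 96.7% and 77%. False calls numbered 8 and 6. DESeq2 1.42.0 and limma 3.58.1 were alternatives. Python 3.11.15 with numpy 2.4.6, scipy 1.17.1 and pandas 2.3.3 did the rest. Doublets were not removed. As an alternative, the 5% of cells per library with the highest scores against simulated doublets were dropped, which held 8, 3, 2 and 1 vessel cells of corn oil 1, corn oil 2, CCl4 1 and CCl4 2.

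Leukocytes are cells with 3 or more Laptm5 UMIs. Cells low in sinusoidal transcripts have at most 25% of the median share of other endothelial cells. Genes named for a change are up to 12 higher and 12 lower by size of the log2 change among called genes whose groups do not overlap. They have at least 30 CPM in the higher group, lie in no list of another cell type, and reach at least 20% of the level in leukocytes and stellate cells. Up to 12 differences between classes were named in the same way, the profile names 20 genes, and within each gene list up to 4 genes were named by change or level. The vessel cells, the gene lists and these rules were chosen with earlier results of these data known. The comparison of members with other endothelial cells was not tested because Vwf chose the cells. Promoters are from RefSeq (GRCm38.p6) and gene positions from GENCODE M21 on the same build. Alternatives covered scaling, filters, tests, thresholds, depth, doublets and left-out libraries.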

Additional observations from a re-analysis of the deposited data

Results flagged for a closer look

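For 12 genes the test of the difference between the classes passed, so the change after CCl4 was not the same in vessel cells and other endothelial cells. The value given for each gene is the log2 change in vessel cells minus that in other endothelial cells. The change was lower in vessel cells for Sema3g (-3.98), Ch25h (-3.35), Cfap69 (-2.60), Ace (-2.26), Emp1 (-2.18), Synpo (-2.13), Selp (-2.09) and Gucy1b1 (-2.08). It was higher in vessel cells for Hlf (2.24), Vegfa (2.19), Rasgrf2 (2.17) and Lmcd1 (2.13). Ch25h, Ace, Selp and Vegfa were called whichever library was left out.

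Synpo stood at 43.7 and 42.1 CPM in corn oil and 107 and 68.4 CPM in CCl4 in vessel cells and 1.76 and 1.94 CPM in corn oil and 21.3 and 13.2 CPM in CCl4 in other endothelial cells. Rasgrf2, a Ras exchange factor gene, stood at 48.0 and 53.5 CPM in corn oil and 30.8 and 48.0 CPM in CCl4 in vessel cells and 29.8 and 22.5 CPM in corn oil and 4.05 and 5.79 CPM in CCl4 in others, where it fell (log2 -2.42, adjusted p = 0.00832). Lmcd1, a LIM domain gene, stood at 23.3 and 26.8 CPM in corn oil and 48.7 and 34.9 CPM in CCl4 in vessel cells and 16.3 and 14.3 CPM in corn oil and 7.47 and 5.27 CPM in CCl4 in others. Hlf stood at 39.3 and 42.1 CPM in corn oil and 4.87 and 10.2 CPM in CCl4 in vessel cells and 67.9 and 135 CPM in corn oil and 3.19 and 4.10 CPM in CCl4 in others. Its CCl4 libraries were lower in both classes, and in corn oil it was higher in other endothelial cells.

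Without corn oil 1 the adjusted p was 0.0661 for Sema3g, 0.464 for Emp1, 0.129 for Synpo, 0.0907 for Rasgrf2 and 0.237 for Lmcd1. Without corn oil 2 it was 0.0716 for Cfap69 and 0.214 for Hlf. Without CCl4 1 it was 0.0949 for Emp1, 0.184 for Synpo, 0.0928 for Hlf and 0.125 for Lmcd1, and without CCl4 2 it was 0.274 for Gucy1b1, 0.883 for Hlf and 0.0572 for Lmcd1.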

How the results depend on the processing

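No named gene changed direction under the settings run. The balance of the 159 differences between the classes, 86 higher and 73 lower, turned to 54 and 77 without corn oil 2, 43 and 46 without CCl4 2, and 21 and 32 with limma-voom, and was even (74 and 74) with DESeq2-type size factors. The 43 genes called in vessel cells became 132 with no filter on low counts, 121 with the replicate block, 6 in cells with 8 or more Vwf UMIs, and 74 (without CCl4 1) to 169 (without corn oil 1) when 1 library was left out. Of the 43, 37 to 42 were called again without any 1 library, and all 6 of the stricter Vwf threshold were among them. Other settings gave 32 to 54 genes. The 159 differences between the classes became 53 with limma-voom, 63 with 8 or more Vwf UMIs, and 89 (without CCl4 2) to 131 (without corn oil 2) when 1 library was left out, of which 78 to 101 were among the 159. The cause of these moves was not tested. The log2 ratio of the share of endothelial cells, 1.30, ran from 0.67 with all filtered cells as the denominator to 1.91 without corn oil 1, and was 0.87 without corn oil 2. Leaving out 1 library also moved Csf2rb2 to log2 7.72 (without corn oil 1), and the differences for Ch25h to -2.70 (without CCl4 1) and -4.05 (without CCl4 2) and Cfap69 to -3.20 (without corn oil 1) and -2.07 (without corn oil 2). Of 402 values for the 24 genes named for their change, 367 kept their call and 35 did not, 14 of them with 8 or more Vwf UMIs. Of 144 values for the 12 largest differences, 113 kept their call. DESeq2 did not call Lcn2 (adjusted p = 0.828), Adamts4 (0.0815), Fosl2 (0.0597), Car3 (0.117) or Bcam (0.163). Vessel cells chosen on counts thinned to 2000 UMIs gave no call for Csf2rb2 (0.0662), Adamts4 (0.0754), Fosl2 (0.113), Gas6 (0.306), Ccnd1 (0.289) or Bcam (0.0791). Their full counts were summed, so this setting changed which cells were taken and did not equalise depth. Limma-voom, the cells low in sinusoidal transcripts and the comparison cells with no Vwf, Gja5 or Edn1 were chosen after seeing the data.

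The labels number the mice 1 and 2 in each group, with nothing that pairs them. With 2 pairs, the correlation of same-numbered deviations was 0.111, which does not establish a pairing, so the replicate block is given only as the count above.

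Depth limits what can be called, since each sum of vessel cells holds only 270454 to 707256 UMIs over 2 mice per group. A gene not called is not shown to be unchanged. Digestion and the Vwf threshold set which vessel cells are seen, and free RNA sets a floor under genes abundant in other cells.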

Other observations

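The 228 endothelial cells with 2 or 3 Vwf UMIs entered neither class, and their values were read after those of the vessel cells. Cyp1a1 had a UMI in 47.0% and 47.9% of them in corn oil and in 16.9% and 12.7% in CCl4. Serpina3n had a UMI in none of them in corn oil and in 40.7% and 50.9% in CCl4. Both genes thus lay on the same side of corn oil as in vessel cells, while Fjx1 was found in 0% and 2.08% of these cells in corn oil and 3.39% and 3.64% in CCl4. Their Gja5 level was 168 to 331 CPM and their Stab2 level 535 to 688 CPM.

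Other genes with a called difference between the classes held VEGF family and protease inhibitor genes. Vegfc, a growth factor for lymphatic vessels, stood at 211 and 287 CPM in corn oil and 391 and 496 CPM in CCl4 in vessel cells (log2 0.87, adjusted p = 0.142) and at 9.58 and 14.5 CPM in corn oil and 41.3 and 47.2 CPM in CCl4 in other endothelial cells (log2 -1.01, adjusted p = 1.05e-04 for the difference). Timp2, an inhibitor of matrix metalloproteases, stood at 338 and 172 CPM in corn oil and 185 and 154 CPM in CCl4 in vessel cells and 50.6 and 30.8 CPM in corn oil and 13.3 and 6.38 CPM in CCl4 in other endothelial cells (log2 1.56, adjusted p = 1.27e-08 for the difference). Fibrillin-1 (Fbn1), the scaffold of elastic fibres, stood at 211 and 214 CPM in corn oil and 146 and 166 CPM in CCl4 in vessel cells and 11.8 and 10.7 CPM in corn oil and 18.4 and 20.6 CPM in CCl4 in others (log2 -1.16, adjusted p = 0.00152 for the difference). Biglycan (Bgn), a small proteoglycan, stood at 1156 and 1189 CPM in corn oil and 794 and 856 CPM in CCl4 in vessel cells and 494 and 412 CPM in corn oil and 223 and 226 CPM in CCl4 in others (log2 0.58, adjusted p = 0.0187 for the difference). None of these 4 genes was called in vessel cells alone. These 4 were chosen after their values were seen.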
